A study of Mus musculus with 4 samples.

Results

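Pre-mRNA splicing factors and heterogeneous nuclear ribonucleoproteins (hnRNPs) were followed through their probes on a whole-genome mouse oligonucleotide array. The set held every gene probe whose array name began with Sfrs and a digit (SR and SR-related proteins), with Hnrp or Hnrnp, or with Sf3a or Sf3b and a digit, or was Mbnl1 to Mbnl3 or Ptbp1 to Ptbp3. This gave 49 gene names with 110 probes, of 27745 names and 41174 gene probes in all. The names are those of the array design, and the current symbol is given where it differs.

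Splicing removes introns from pre-mRNA in a large complex, the spliceosome. SR proteins carry domains rich in arginine and serine and mostly promote the use of nearby exons, whereas hnRNPs coat nascent RNA and often repress exons. The SF3A and SF3B complexes are parts of the U2 small nuclear ribonucleoprotein and help it to hold the branch point. Muscleblind-like proteins (MBNL) and polypyrimidine tract-binding proteins (PTB) switch alternative exons in a tissue-specific way. MBNL1 and MBNL2 are known as repressors of exon patterns typical of ES cells, and PTBP1 as a repressor of neuronal exons.

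Each of 4 arrays carried 2 RNAs. The red channel (Cy5) held RNA of induced pluripotent stem (iPS) cells on 2 arrays and, on the other 2, RNA of mouse embryonic fibroblasts (MEFs) taken after several passages. The iPS cells came from 1 clone harvested 30 days after transduction, and the labels used here do not name the transduced factors, the strain or the age of the embryos. On every array the green channel (Cy3) was given to CGR8.8, a mouse embryonic stem (ES) cell line. Cells of the iPS clone and of the ES line had been kept in medium with 1000 IU/ml of leukemia inhibitory factor (LIF). The 2 arrays of a group are biological replicates by their labels, which do not say that cultures were separate, so the p-values below measure only a spread that may be technical. Dyes were not swapped, so any dye effect of a probe remains in the ratios over ES cells and drops out of the iPS to MEF difference. The arrays shared 1 slide, where position and group cannot be told apart.

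The share of gene probes well above background was 61.1% to 63.2% in red and 62.0% to 63.4% in green. The log2 ratios of replicate arrays correlated at 0.992 (iPS) and 0.989 (MEF) across probes, which are not independent replicates. Cell type markers were checked against the labels. All 10 tested pluripotency probes were called higher in iPS cells than in MEFs, 6 were higher and 2 lower in iPS cells than in ES cells, and 9 were lower in MEFs than in ES cells. Of 13 fibroblast marker probes, 8 were lower in iPS cells than in ES cells and 12 higher in MEFs than in ES cells. Epithelial markers separated both groups from the ES line, with all 5 probes (of Cdh1, Krt8, Krt18 and Tacstd1) lower in iPS cells and in MEFs. Of 6 macrophage probes 3 were higher and 1 lower in MEFs than in ES cells, with the Lyzs probes at 4.88 and 0.63 and Cd68 at -1.69, and the summed normalized signal of the list was 7852 to 8954 in MEFs against 1279 to 1533 in ES cells. Of 5 endothelial probes 1 was higher (Emcn, 5.07) and 1 lower (Kdr, -1.54), with a median of -0.43 and a summed signal of 4182 to 4242 in MEFs against 2460 to 2909 in ES cells. The summed fibroblast signal was 2313 to 2399 in iPS cells, 25077 to 32368 in ES cells and 539541 to 571264 in MEFs. The part of other cells in the results was not tested for any RNA, the ES reference of every ratio included. In bulk RNA fewer cells of a type and less RNA per cell cannot be told apart.

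Of the 110 probes, 102 passed the filter on dim probes, being well above background on all arrays of 1 RNA or more. The other 8 were dim by this rule, although the Sfrs15 probe A_52_P327854 was above background in ES cells on 3 of the 4 arrays. Among the 102, 14 had a spot marked as an outlier by the scanner software on at least 1 array, which left 88 tested probes of 45 genes. The genes without a tested probe were Hnrph3, Hnrpul2, Sf3b5 and Sfrs15 (Scaf4). No member spot was saturated, and 85 of the 88 probes were above background in both channels on every array. The tested members were bright, with a median log2 intensity of 11.27 against 8.38 over all tested probes. Their replicates differed by a median of 0.04 (iPS) and 0.08 (MEF) on the log2 scale, with largest differences of 0.37 (iPS) and 0.54 (MEF). Values below are log2 ratios, and the error is the standard error (SE) of a linear model over the 4 arrays (n = 2 arrays per group). A probe was called higher or lower at an adjusted p under 0.05 together with at least a 2-fold change, which is 1 on the log2 scale.

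In MEFs, 3 of 6 muscleblind-like probes were called higher than in ES cells, and 7 of 33 SR, 10 of 34 hnRNP and 5 of 10 SF3 probes lower. Most members, 63 of 88 probes, were not called. Of the 88 tested probes 22 were lower, against 12.4% of all tested probes, and 3 were higher, against 12.8% of all tested probes. The 22 lower probes belonged to 15 genes, and all 3 higher ones to Mbnl1 and Mbnl2. The members' median was -0.54, against -0.01 over all probes. Without the 2-fold condition 65 of the 88 member probes were lower and 10 higher. Of all 24874 tested probes 10482 were then lower and 10042 higher, so 82.5% differed in one direction or the other.

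In iPS cells, 81 of the 88 probes were within 2-fold of ES cells. Called higher were 6 probes, against 8% of all tested probes, and called lower was 1 probe, against 10.7% of all tested probes. The members' median was 0.07, against -0.01 over all probes. At any fold 35 of the 88 member probes were higher and 30 lower. Of all 24874 tested probes 9466 were higher and 9958 lower, so 78.1% differed. Set beside ES cells, 65 member probes (73.9%, against 63.4% of all tested probes) were within 1.5-fold in iPS cells and 41 (46.6%, against 55.3% of all tested probes) in MEFs.

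Between iPS cells and MEFs, 35 member probes were higher in iPS cells, against 15.4% of all tested probes, and 5 were lower, against 17.7% of all tested probes. The higher probes belonged to 20 genes and the lower ones to Mbnl1, Mbnl2 and Sfrs8. The members' median was 0.70, against 0.01 over all probes. At any fold 68 member probes were higher and 7 lower. Of all 24874 tested probes 9987 were higher and 9866 lower, so 79.8% differed. Both iPS cells and MEFs were read against the same ES line, so the ratios over ES share that RNA, and 16 of the 22 probes that were lower in MEFs than in ES cells were also called higher in iPS cells than in MEFs. The corresponding share was 72.7% of the lower members, against 59.1% of all lower probes, and both comparisons use the MEF arrays. At any fold, 26 probes were both higher in iPS cells and lower in MEFs than in ES cells, at an adjusted p under 0.05 each, which is 29.5% of the members against 15.5% of all tested probes.

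**Figure D1:**
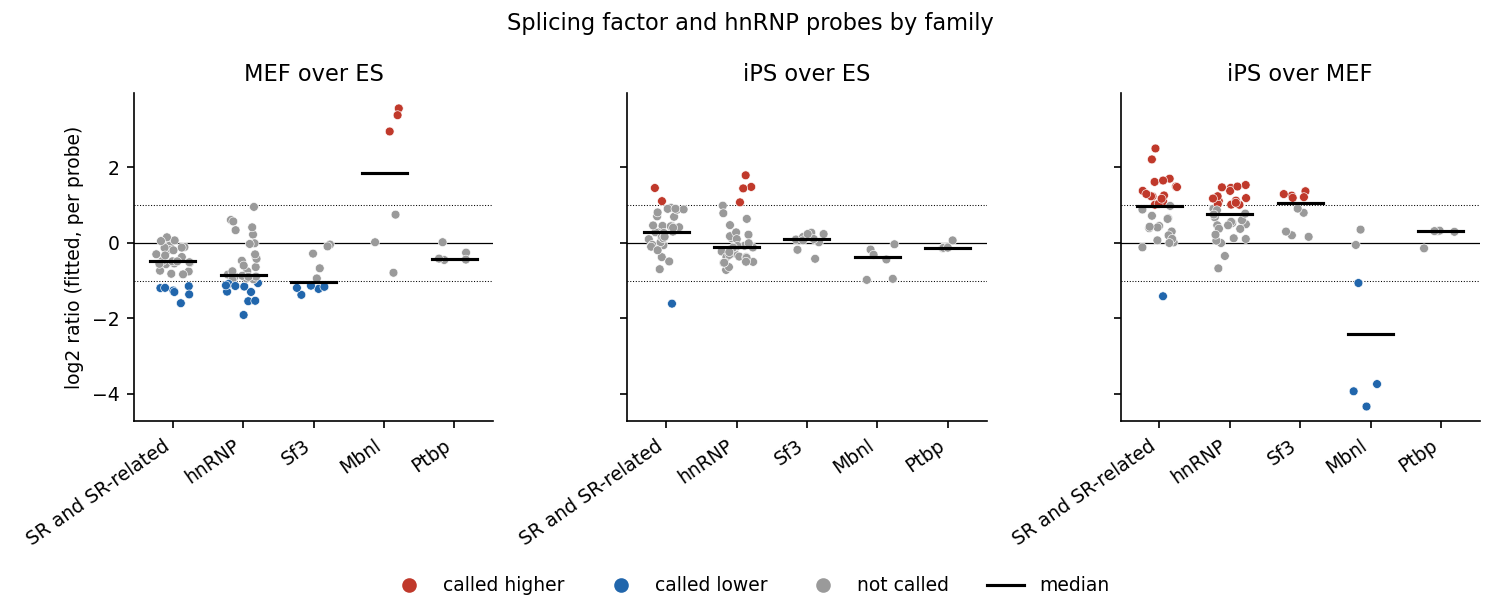
Fitted log2 ratio of each of the 88 tested probes (y axis) by family, for MEFs over ES cells, iPS cells over ES cells and iPS cells over MEFs. Points are probes, coloured by call, bars are family medians and dotted lines mark 2-fold. SR, hnRNP and SF3 probes lay mostly below 0 in MEFs over ES cells, with medians of -0.49, -0.85 and -1.04, while the Mbnl median was 1.85.

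The members' medians kept their sign under every way of processing tried. That of iPS over ES cells was near 0 in several, down to 0.02 with means over a gene's probes, so its sign says little. The number of calls in MEFs over ES cells depended on the scaling. With median centring of each array in place of the intensity-dependent loess curve, the median of all probes moved to 0.14 for iPS cells and 0.16 for MEFs over ES cells. The members' medians were then 0.42 for iPS cells and -0.13 for MEFs over ES cells, and 4 member probes were lower in MEFs in place of 22. These 4 were 4.55% of the members, against 8.13% of all tested probes under that scaling, so the members' larger share of lower calls (25%, against 12.4%) was not seen there. That scaling put 70.0% of all calls of MEFs over ES cells on the higher side, against 50.6% as reported, and 61.5% against 42.8% for iPS cells over ES cells. The members' median for iPS cells over MEFs was 0.65 under it, with 32 probes higher and 5 lower. These were 36.4% and 5.68% of the members, against 15.3% and 19.5% of all tested probes. With the background model fitted over all spots, outlier spots of MEF replicate 1 included, no probe on the array was called in MEFs over ES cells, while the members' median was still -0.35. Between iPS cells and MEFs 12 members were then higher and 1 lower (13.6% and 1.14%, against 4.91% and 5.69% of all tested probes).

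Muscleblind-like proteins are RNA-binding splicing regulators whose loss of function underlies myotonic dystrophy. Mbnl1 and Mbnl2 gave the highest ratios of all members in MEFs over ES cells. The 5′ stretch of each probe used for them is shown because probes of one gene gave unlike values. Positions are on mm8, all on the plus strand, and each 30-base stretch starts at the 5′ end of a 60-base probe.
Mbnl1, A_51_P428345, chr3:60717022-60717081: cttcagccactaagatgaaatcatggatca
Mbnl1, A_52_P228437, chr3:60619487-60619546: ccagtgtccctaacgagattcaacccccac
Mbnl2, A_51_P189269, chr14:119565914-119565973: aatttgtggaaaggtattgtatctaacttg
Mbnl2, A_51_P494361, chr14:119564356-119564415: accagctgtgatgttcgaagacatacagga
Mbnl2, A_52_P234744, chr14:119462930-119462989: cctaattgcttatgccctcctgacatcatt

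The downstream Mbnl1 probe A_51_P428345 had log2 ratios over ES cells of -0.24 and -0.12 in iPS cells and of 3.55 and 3.57 in MEFs. Both iPS arrays stood far below both MEF arrays. The fitted ratio was 3.56 ± 0.05 (SE, n = 2) in MEFs over ES cells, which is 11.8-fold (adjusted p = 5.1e-09), and -0.18 ± 0.05 in iPS over ES cells. The difference between iPS cells and MEFs was -3.74 ± 0.07 (adjusted p = 1.5e-08). The probe A_52_P228437, 97.5 kb upstream, gave -0.30 and -0.32 in iPS cells and 0.78 and 0.72 in MEFs. Its groups were ordered in the same way without overlap. In the fit as reported only its difference between iPS cells and MEFs (-1.06 ± 0.07, adjusted p = 4.2e-06) reached 2-fold. It was above background on 1 of 2 iPS arrays, and its signal in iPS cells was weak, with log2 levels no higher than 6.36. By the scanner's ratio A_52_P228437 read -1.36 and -1.14 in iPS cells and 1.49 and 1.54 in MEFs over ES cells. The size of its change is therefore poorly bounded. A further Mbnl1 probe was dim in every RNA.

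Mbnl2 showed the same order at its downstream probes. A_51_P189269 had log2 ratios over ES cells of -1.03 and -0.87 in iPS cells and of 3.41 and 3.35 in MEFs. A_51_P494361, 1.56 kb away, had -0.95 and -1.01 in iPS cells and 2.92 and 2.98 in MEFs. All iPS values were far below all MEF values at both probes. The fitted ratios in MEFs over ES cells were 3.38 ± 0.06 and 2.95 ± 0.05 (adjusted p = 7.5e-09 and 6.8e-09). Those of iPS over ES cells were -0.95 ± 0.06 and -0.98 ± 0.05, just inside the 2-fold limit (adjusted p = 3.7e-06 and 1.3e-06). Leaving out 1 iPS array brought 1 or the other of these probes past the limit, at -1.03 without replicate 2 and -1.01 without replicate 1. Between iPS cells and MEFs the differences were -4.33 ± 0.08 (20.1-fold lower in iPS cells) and -3.93 ± 0.07 (15.2-fold lower). The Mbnl2 probe A_52_P234744, 101 kb or more upstream, read 0.15 and -0.22 in iPS cells and 0.13 and -0.10 in MEFs. Its groups overlapped, and its fitted ratio in MEFs over ES cells was 0.02 (95% interval of the fit -0.21 to 0.25). The signal was weak, with log2 levels of 6.23 to 6.87 in iPS cells and MEFs, against 11.95 to 12.95 in MEFs at the downstream probes. By the scanner's ratio A_52_P234744 read 0.32 and -0.40 in iPS cells and 0.64 and 0.08 in MEFs, so a change at it is poorly bounded. The spread between the Mbnl2 probes was 3.36 in MEFs over ES cells and 4.28 for iPS cells over MEFs. It was the widest of any member gene in those comparisons and rests on the weak upstream probe. With the background model fitted over all spots, the MEF over ES ratios were 2.10 for the downstream Mbnl1 probe and 1.86 and 1.83 for the downstream Mbnl2 probes, and none was called (adjusted p = 0.36).

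Mbnl3, a family member known mainly from placenta and early muscle, was tested by 1 probe. It read -0.47 and -0.41 in iPS cells and -0.87 and -0.71 in MEFs over ES cells, and was above background on 1 of 2 MEF arrays. No comparison of Mbnl3 reached 2-fold in the fit as reported. Its signal in MEFs was weak, with log2 levels of 6.25 and 6.27, so its level there is only bounded. By the scanner's ratio the probe read -0.86 and -1.06 in iPS cells and -2.42 and -1.82 in MEFs over ES cells.

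Polypyrimidine tract-binding proteins had no call. Ptbp1, present in most non-neuronal cells, read -0.14 on both iPS arrays and -0.41 and -0.50 in MEFs at probe A_51_P462692, and 0.09 and 0.05 in iPS cells and -0.30 and -0.21 in MEFs at A_52_P234619. Ptbp2, the neuronal paralogue, read -0.12 on both iPS arrays and -0.40 and -0.43 in MEFs at A_51_P363818. Its probe A_52_P422088 read -0.11 and -0.15 in iPS cells and -0.33 and -0.55 in MEFs, and its probe A_52_P593110 read -0.14 and -0.11 in iPS cells and 0.08 and -0.04 in MEFs. The iPS arrays were above the MEF arrays without overlap at 4 of the 5 probes, and below them at A_52_P593110. Such non-overlap was not counted over all tested probes, of which 79.8% differed between iPS cells and MEFs at any fold. The 95% intervals of the iPS over ES ratios of the 5 probes ran from -0.28 to 0.18, inside 2-fold. They cover only the spread between these arrays, and a dye effect of a probe is not part of them. At A_52_P422088 and A_52_P593110 the signal was weak, with log2 levels of 6.65 to 7.22 in iPS cells. For MEFs over ES cells the intervals ran from -0.59 to 0.14.

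**Figure D2:**
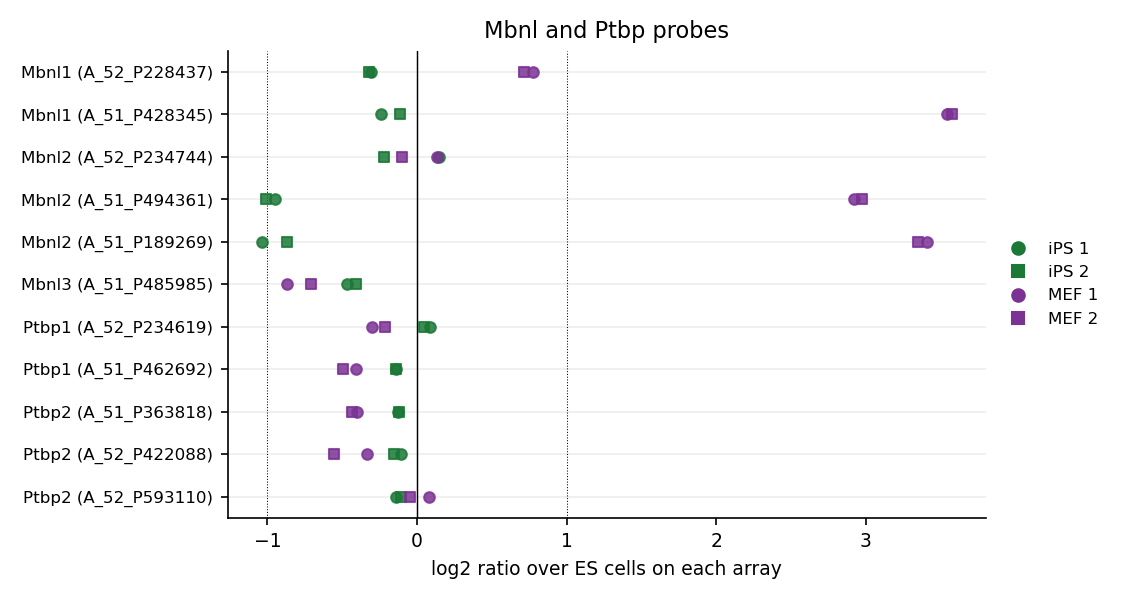
Log2 ratio over ES cells on each array (x axis) for the 11 tested Mbnl and Ptbp probes, with iPS arrays in green and MEF arrays in purple. Dotted lines mark 2-fold. At 3 probes of Mbnl1 and Mbnl2 the MEF arrays sit at 2.92 to 3.57, while no Ptbp array passes 2-fold.

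SR proteins and their relatives held the widest shifts between iPS cells and MEFs outside Mbnl. Of 33 tested SR probes, 16 probes of 8 genes were higher in iPS cells than in MEFs and 1 was lower. In MEFs over ES cells 7 probes were lower and none higher (the smallest ratio was -1.60 and the largest 0.15), and in iPS cells over ES cells 2 were higher and 1 lower. The 7 lower probes were those of Sfrs7 (Srsf7), 1 of Sfrs10 (Tra2b), 1 of Sfrs6 (Srsf6) and both of Sfrs1 (Srsf1). Sfrs1 was picked for naming after its values were seen.

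Sfrs7 encodes an SR protein with a zinc knuckle that also serves in mRNA export. Its probe A_51_P466673 (mm8, chr17:80109291-80109350, minus strand) had log2 ratios over ES cells of 0.88 and 0.93 in iPS cells and of -1.59 and -1.60 in MEFs. On every array iPS cells were thus above ES cells and MEFs below them. The fit gave -1.60 ± 0.05 in MEFs over ES cells (adjusted p = 7.3e-08), 0.90 ± 0.05 in iPS over ES cells and 2.50 ± 0.07 for iPS cells over MEFs (adjusted p = 5.3e-08). The other probes, A_52_P649683 and A_52_P649685, share a run of 20 bases with each other and lie within 0.395 kb. They were fitted at -1.30 and -1.19 in MEFs over ES cells, at 0.40 and 0.46 in iPS over ES cells and at 1.70 and 1.65 in iPS cells over MEFs. All 3 probes were called in MEFs over ES cells and between iPS cells and MEFs, and none in iPS over ES cells.

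Sfrs10 encodes TRA2B, a splicing activator that binds purine-rich exons. Its probes lie 12.8 kb apart on chromosome 16 (mm8, minus strand) and are shown because only 1 was called in each ratio over ES cells.
Sfrs10, A_51_P264322, chr16:22161559-22161618: cttgccatattcaatatacctgcgattaag
Sfrs10, A_52_P320822, chr16:22174323-22174382: gtcccacttgtagaatattgagcaatttgt

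A_51_P264322 read 0.28 and 0.31 in iPS cells and -1.26 and -1.14 in MEFs over ES cells. A_52_P320822 read 1.48 and 1.43 in iPS cells and -0.75 and -0.76 in MEFs. At both probes iPS cells lay above ES cells and MEFs below. The first was called lower in MEFs (-1.20 ± 0.05, adjusted p = 4.7e-07), the second higher in iPS cells (1.45 ± 0.05, adjusted p = 1.5e-07), and both higher in iPS cells than in MEFs, by 1.49 ± 0.07 and 2.21 ± 0.07.

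Sfrs2 (Srsf2), a nuclear SR protein that does not shuttle, was represented by 4 probes. MEFs over ES cells were fitted between -0.83 and -0.56 and iPS cells over ES cells between 0.26 and 0.88, with no call in either. Between iPS cells and MEFs the fits ran from 0.98 to 1.61, and the probe at 0.98 alone missed the limit. Sfrs14 (Sugp2), an SR-related protein with a G-patch domain, read 1.13 and 1.08 in iPS cells and -0.41 and -0.33 in MEFs over ES cells at A_51_P147714. That probe was called higher in iPS cells than in ES cells (1.11 ± 0.05, adjusted p = 7.7e-07), and the other Sfrs14 probes stood at 0.93 and 0.69. All 3 were called higher in iPS cells than in MEFs, by 1.23 to 1.48. Sfrs3 (Srsf3), the smallest SR protein, read 0.90 on both iPS arrays and -0.44 and -0.52 on the MEF arrays at A_51_P417016, a difference of 1.38 ± 0.07 (adjusted p = 1.1e-06). Its probe A_52_P545451 was fitted at 0.41 and was not above background on either MEF array, so its level in MEFs is only bounded.

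Sfrs6 differed by probe in MEFs. A_52_P543824 read -0.19 and -0.20 in iPS cells and -1.29 and -1.44 in MEFs, and A_51_P185121, 1.92 kb away, read -0.06 and -0.14 in iPS cells and -0.49 and -0.56 in MEFs. The first was called lower in MEFs than in ES cells (-1.36 ± 0.05, adjusted p = 2.9e-07) and the second was not. Sfrs16 (Clasrp) gave the highest SR ratio in MEFs over ES cells, with 0.43 and 0.47 in iPS cells and 0.09 and 0.21 in MEFs, and was not called.

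Sfrs8 (Sfswap), homologous to the Drosophila splicing regulator suppressor of white-apricot, was the exception in the iPS cells. Its 4 probes lie on chromosome 5 (mm8, plus strand) over 68.3 kb, and the one that differed is set beside one at the other end.
Sfrs8, A_52_P396974, chr5:129817690-129817749: aaggaggtttacatcaaagttaagcagatt
Sfrs8, A_51_P327963, chr5:129885944-129886003: gtcagtcagtggcttttgtaaatttttggt

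The upstream probe A_52_P396974 read -1.67 and -1.54 in iPS cells and -0.06 and -0.34 in MEFs over ES cells. Both iPS arrays were below both MEF arrays. It was the one member called lower in iPS cells than in ES cells (-1.61 ± 0.07, adjusted p = 9.3e-07), and it was lower than in MEFs by 1.41 on the log2 scale (adjusted p = 1.1e-05). The other 3 probes were fitted at 0.12 to 0.16 in iPS over ES cells, so the probes of Sfrs8 spanned 1.77, the widest span of any member gene in that comparison.

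**Figure D3:**
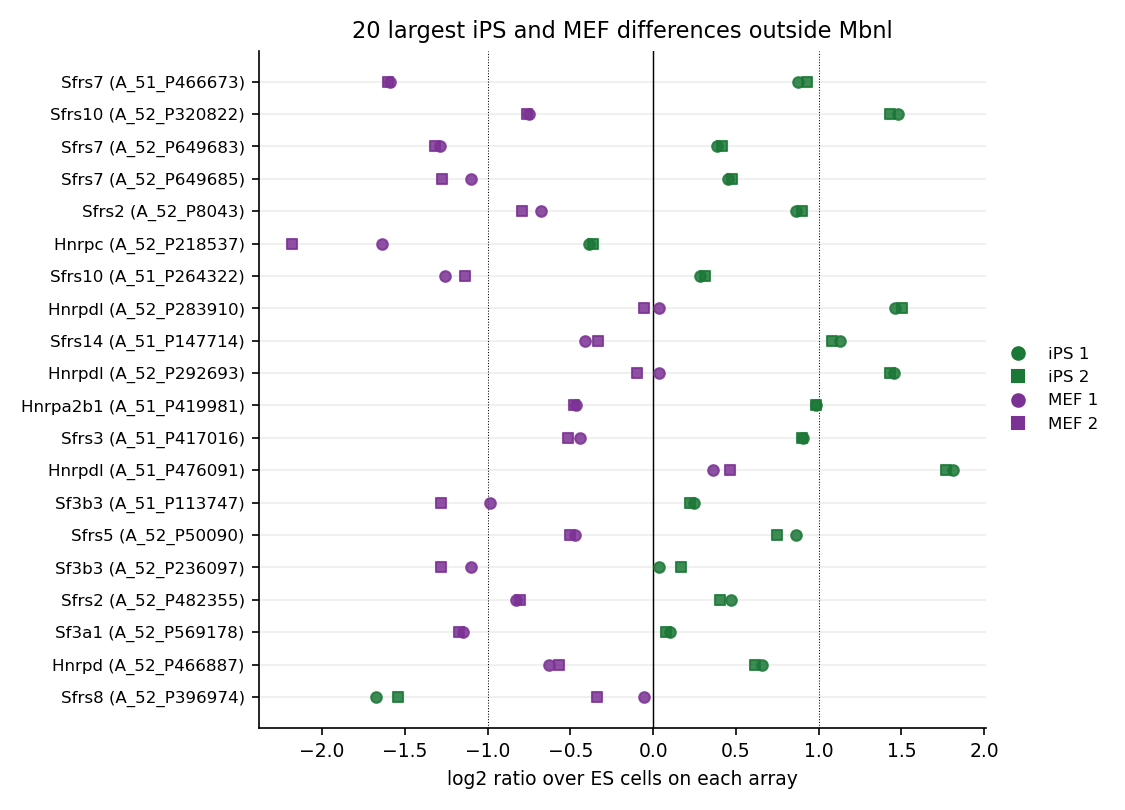
Log2 ratio over ES cells on each array (x axis) for the 20 member probes outside Mbnl with the largest difference between iPS cells and MEFs, with iPS arrays in green and MEF arrays in purple. Dotted lines mark 2-fold. In 19 of the 20 rows the iPS arrays lie to the right of the MEF arrays, and in the row of Sfrs8 they lie to the left, at -1.67 and -1.54.

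Among hnRNPs, 10 of 34 tested probes, of 8 genes, were lower in MEFs than in ES cells and none higher. In iPS over ES cells 4 were higher, all of Hnrpdl, and none lower. Between iPS cells and MEFs 14 probes of 9 genes were higher and none lower. The family median was -0.85 in MEFs over ES cells, -0.11 in iPS over ES cells and 0.76 for iPS cells over MEFs.

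Hnrpc (Hnrnpc) encodes a core hnRNP that binds uridine tracts. Its tested probe A_52_P218537 (mm8, chr14:51006190-51006249, minus strand) read -0.39 and -0.36 in iPS cells and -1.64 and -2.18 in MEFs over ES cells. It had the widest gap between MEF replicates of all members, and both iPS arrays were still above both MEF arrays. Its ratio of -1.91 ± 0.11 in MEFs over ES cells (adjusted p = 2.5e-06) was the lowest of all tested members. At this probe iPS cells exceeded MEFs by 1.53 ± 0.16 (adjusted p = 6.9e-05). The other Hnrpc probe, A_52_P596080, was named after its values were seen. Its spot was marked on the array of MEF replicate 2, so it had no fit as reported. With marked spots kept other than those of high local background, it was fitted at -0.87 ± 0.05 in MEFs over ES cells. For iPS cells over MEFs that fit gave 0.48 ± 0.06, and neither value reached 2-fold.

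Hnrpa1 (Hnrnpa1), an antagonist of SR proteins in splice site choice, had 4 tested probes on chromosome 15. Their ratios in MEFs over ES cells were -1.29, -1.16, -1.06 and -0.75, the first 3 of them called, and the same 3 were higher in iPS cells than in MEFs by 1.01, 1.01 and 1.19. In iPS over ES cells the 4 probes ran from -0.28 to 0.12. The iPS to MEF difference of A_52_P637440, 1 of the 3, was 0.955 without iPS replicate 2 and 0.950 without MEF replicate 2, under the limit. Hnrpa1 has many processed copies in the mouse genome, and how far probes of such families also bind other copies was not tested. Hnrpa3 (Hnrnpa3), a close relative, read -0.67 and -0.61 in iPS cells and -1.53 and -1.55 in MEFs at A_51_P222088. Its other probes were fitted at -0.94 and -0.64 in MEFs over ES cells, uncalled, and at 1.12 and 1.11 in iPS cells over MEFs, called.

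Hnrpab (Hnrnpab), an RNA-binding protein of the A/B type, was fitted at -1.53 ± 0.05 (adjusted p = 1.5e-07) and -0.89 ± 0.05 in MEFs over ES cells at its tested probes, and the first was higher in iPS cells than in MEFs by 1.03. Leaving out iPS or MEF replicate 2 put that difference at 0.998 or 0.971, likewise under the limit. Hnrpu (Hnrnpu), a nuclear scaffold protein, was fitted at -1.30 ± 0.05 (adjusted p = 3.7e-07) and -0.90 ± 0.05 in MEFs over ES cells, and Hnrpk (Hnrnpk), which binds cytidine-rich RNA, at -1.09 ± 0.06 (adjusted p = 1.2e-06) and -0.75 ± 0.05. In iPS over ES cells the Hnrpu probes were both at -0.12 and the Hnrpk probes at -0.53 and -0.38.

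Hnrpdl (Hnrnpdl), a relative of the AU-rich element binding protein encoded by Hnrpd, was the one gene whose tested probes were all called higher in iPS cells than in ES cells. A_51_P476091 read 1.81 and 1.77 in iPS cells and 0.36 and 0.46 in MEFs over ES cells, and A_52_P292693 read 1.46 and 1.43 in iPS cells and 0.04 and -0.09 in MEFs. Both iPS arrays lay above both MEF arrays at all 4 probes. The fits in iPS over ES cells were 1.79, 1.48, 1.44 and 1.07 (adjusted p between 8.1e-08 and 7.7e-07), and 3 of the probes were also higher than in MEFs, by 1.38 to 1.49. The fourth, A_52_P146848, differed from MEFs by 0.47 only, with 0.58 and 0.64 in MEFs.

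Hnrpa2b1 (Hnrnpa2b1), which also takes part in RNA transport, gave values of opposite sign in iPS cells. Its probes lie 1.46 kb apart on chromosome 6 (mm8, minus strand).
Hnrpa2b1, A_51_P419981, chr6:51392376-51392436: gacataacgtttttccttcccaattttaag
Hnrpa2b1, A_52_P636482, chr6:51390921-51390980: gtcaaccacagagtcttcaagaaataagaa

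A_51_P419981 read 0.99 and 0.98 in iPS cells and -0.46 and -0.48 in MEFs over ES cells, and A_52_P636482 read -0.70 and -0.73 in iPS cells and -0.81 and -0.87 in MEFs. The first was called higher in iPS cells than in MEFs (1.46 ± 0.07, adjusted p = 6.5e-07), the second was not (0.12 ± 0.07), and neither reached 2-fold against ES cells. The hnRNP with the highest ratio in MEFs over ES cells was Hnrph2 (Hnrnph2), which binds guanine-rich tracts, with 0.26 and 0.29 in iPS cells and 0.97 and 0.94 in MEFs, just under the limit. Hnrph3 (Hnrnph3), named after its values were seen, had no fit as reported because its spot was marked on the array of iPS replicate 1. It read 0.41 in iPS replicate 2 and -1.90 and -1.98 in MEFs. With marked spots kept other than those of high local background, it was fitted at -1.96 ± 0.06 in MEFs over ES cells and 2.43 ± 0.08 for iPS cells over MEFs.

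**Figure D4:**
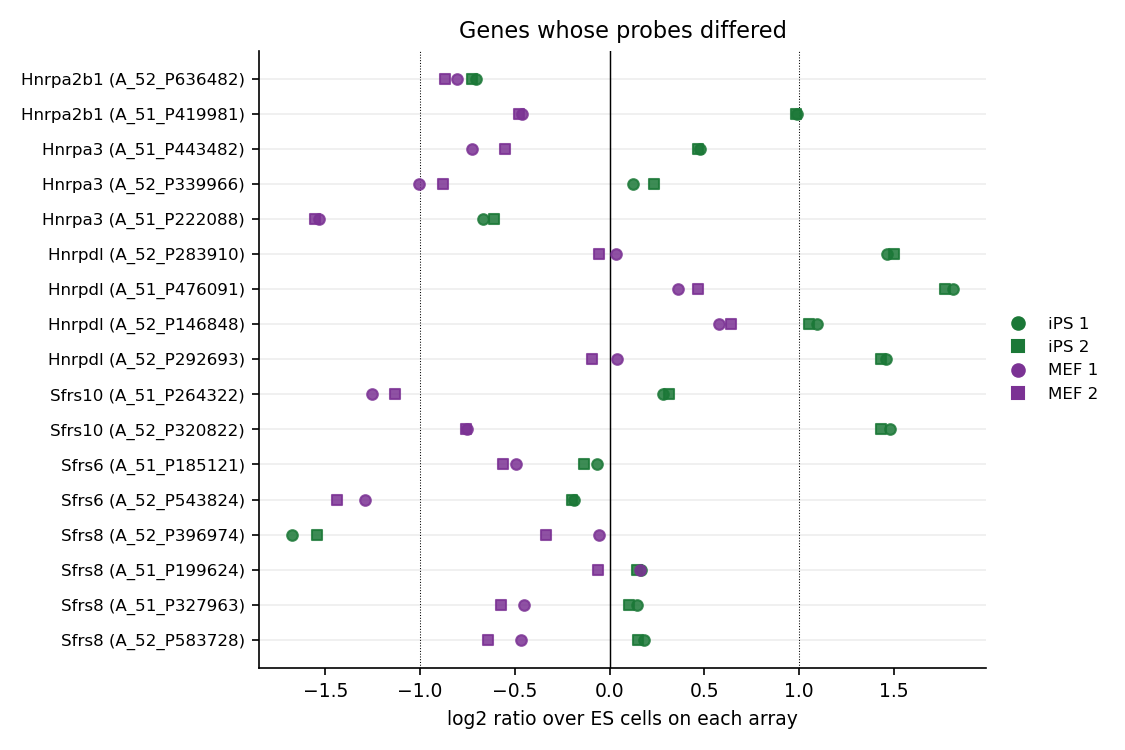
Log2 ratio over ES cells on each array (x axis) for all tested probes of 6 genes whose probes differed in call, with iPS arrays in green and MEF arrays in purple. Dotted lines mark 2-fold. Probes of Hnrpa2b1 stand at 0.99 and -0.70 on the first iPS array, and 1 probe of Sfrs8 stands at -1.67 while its other probes stand above 0 on that array.

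Of the SF3 subunits, 5 of 10 tested probes, of 3 genes, were lower in MEFs than in ES cells, none was called in iPS over ES cells, and 5 were higher in iPS cells than in MEFs. All 10 probes had ratios below 0 in MEFs over ES cells, and the differences of iPS cells from MEFs were all above 0. Over all tested probes the medians of these comparisons were -0.01 and 0.01. Sf3a3, a subunit of SF3A, read -0.15 and -0.22 in iPS cells and -1.41 and -1.34 in MEFs, with a fit of -1.38 ± 0.05 in MEFs over ES cells (adjusted p = 1.9e-07) and 1.19 ± 0.07 for iPS cells over MEFs. Sf3a1, the largest SF3A subunit, was fitted at -1.22 and -1.16 in MEFs over ES cells at its probes, both called. Sf3b3, a large scaffold of SF3B, was fitted at -1.19, -1.13 and -0.94, of which the first and second were called, and at 1.29, 1.37 and 1.21 in iPS cells over MEFs, all called. Without MEF replicate 2 the probe at -1.13 stood at -0.98 and lost its call.

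The remaining SF3 subunits were closer to ES cells in MEFs. Sf3a2 read 0.19 and 0.13 in iPS cells and -0.16 and 0.08 in MEFs, and Sf3b2 read 0.07 on both iPS arrays and -0.11 and -0.07 in MEFs. Neither was called in any comparison. The tested probes of Sf3b1 and Sf3b4 were uncalled too.

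Of the 45 tested genes 25 had several tested probes, and these probes differed in call for 10 genes (MEFs over ES cells), 3 genes (iPS over ES cells) and 12 genes (iPS cells over MEFs). No gene had probes with opposite calls. Of 94 pairs of probes of the same name, 1 shared 15 or more bases in a row. Probes of different gene names shared at most 11. Counted by gene, with the brightest probe of each, 9 genes were lower and 2 higher in MEFs than in ES cells, 1 was higher and none lower in iPS cells than in ES cells, and 16 were higher and 2 lower in iPS cells than in MEFs. Of the 45 member genes 20% were thus lower in MEFs, against 13.7% of all 17241 genes tested, and 35.6% higher in iPS cells than in MEFs, against 17%. The 1 gene higher in iPS cells than in ES cells was 2.22%, against 9.09%. Probes of one gene share its transcripts and are not replicates. Whether they lie in different transcript forms was not tested.

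Other genes of the splicing machinery were counted in the same fit, from lists of known members. Their counts stand beside the shares of all tested probes, which were 12.4% lower and 12.8% higher in MEFs over ES cells, 10.7% and 8% in iPS over ES cells, and 17.7% and 15.4% in iPS cells over MEFs. Of 58 tested probes of core spliceosome genes, 13 were lower and 2 higher in MEFs than in ES cells, 7 higher and 1 lower in iPS cells than in ES cells, and 16 higher and none lower in iPS cells than in MEFs. The medians in these comparisons were -0.62, 0.08 and 0.78, beside -0.54, 0.07 and 0.70 over the splicing factors and hnRNPs. Dhx16, a helicase that activates the spliceosome, read 1.99 and 2.01 in iPS cells and -2.16 and -2.21 in MEFs at A_51_P357685, a difference of 4.19 ± 0.07 (adjusted p = 7.7e-09). Cdc5l, a core protein of the complex around PRPF19, read 2.21 and 2.22 in iPS cells and -0.93 and -0.90 in MEFs. Snrpn, which encodes an Sm protein of small nuclear ribonucleoproteins, was lower in MEFs by 1.69 at A_51_P168862 and U2af1, which reads the 3′ splice site, was at 1.30 in iPS over ES cells. The 2 higher probes in MEFs were both of Snrpd3, at 0.61 and 1.95 on the MEF arrays at A_51_P176681, so that its replicates differed by more than any member's. Its remaining probe, A_52_P150588, read -0.27 and -0.11 in MEFs and was not called.

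For kinases and coactivators of SR proteins no probe was called between iPS cells and MEFs. Of their 22 tested probes, 7 were lower and 2 higher in MEFs than in ES cells, and 3 were lower and none higher in iPS cells than in ES cells. Clk4, a kinase of SR proteins, was lower than in ES cells in both, with -1.63 on both iPS arrays and -1.12 and -1.33 in MEFs at A_51_P339547. Srrm1, a coactivator, stood at 0.74 in iPS cells and was called higher in MEFs than in ES cells (1.67 ± 0.05, adjusted p = 9.0e-08).

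Of 56 tested probes of other splicing regulators, 10 were lower and 4 higher in MEFs than in ES cells, 8 lower and 2 higher in iPS cells than in ES cells, and 4 higher and 3 lower in iPS cells than in MEFs. Cugbp2 (Celf2), an antagonist of MBNL at many exons, read -1.95 and -1.93 in iPS cells and 1.84 and 1.92 in MEFs at A_51_P182471, a difference of -3.82 ± 0.07 (adjusted p = 1.1e-08). It was thus below ES cells in iPS cells and above them in MEFs. Rbm35a (Esrp1), a splicing regulator of epithelial cells, read -1.86 and -1.99 in iPS cells and -2.67 and -2.64 in MEFs. Rbm35b (Esrp2), its paralogue, was fitted at -1.48 in iPS cells and -1.43 in MEFs over ES cells at A_51_P296517. Both were lower than in ES cells in both groups, as were the 5 epithelial marker probes, whose summed normalized signal was 32513 to 32873 in iPS cells and 23492 to 23712 in MEFs against 540808 to 612123 in ES cells. The part of that list in the Esrp1 and Esrp2 values was not tested.

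Promoters were examined because many members moved together between iPS cells and MEFs. RefSeq windows of 300 bases, 250 before and 50 after a gene's start (GRCm38.p6), were matched for 45 member genes and searched on both strands for 4 short motifs, which can overlap each other. CCGGAA, the core of ETS-type sites, was in 44.4% of the member genes, against 27.4% of 11019 genes with a tested probe and 16.7% of 27025 genes in the table. The GC box GGGCGG was in 77.8%, against 64.5% and 38.2%. The E-box CACGTG was in 17.8%, against 11.3% and 8.09%, and TATAAA in 13.3%, against 10.3% and 15.7%. Among the genes with a probe lower in MEFs than in ES cells 8 of 15 held CCGGAA, and among the other tested member genes 12 of 28. Neither of the 2 member genes without a tested probe (Hnrnph3 and Scaf4) held it. Stretches around the match are shown for 3 of these 8, 1 for each family, with the motif or its reverse complement TTCCGG in capitals.
Srsf7 (array name Sfrs7), chr17:80207496-80207545, minus strand: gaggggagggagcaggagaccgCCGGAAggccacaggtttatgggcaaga
Hnrnpab (array name Hnrpab), chr11:51607025-51607074, minus strand: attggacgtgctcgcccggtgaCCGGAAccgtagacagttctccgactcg
Sf3a3, chr4:124714825-124714860, plus strand: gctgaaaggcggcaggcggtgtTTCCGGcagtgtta

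The match ended 212, 165 and 8 bases before the annotated start in these genes. A match of letters is a description and not a site of binding, and a window without one says only that these letters are not in it.

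**Figure D5:**
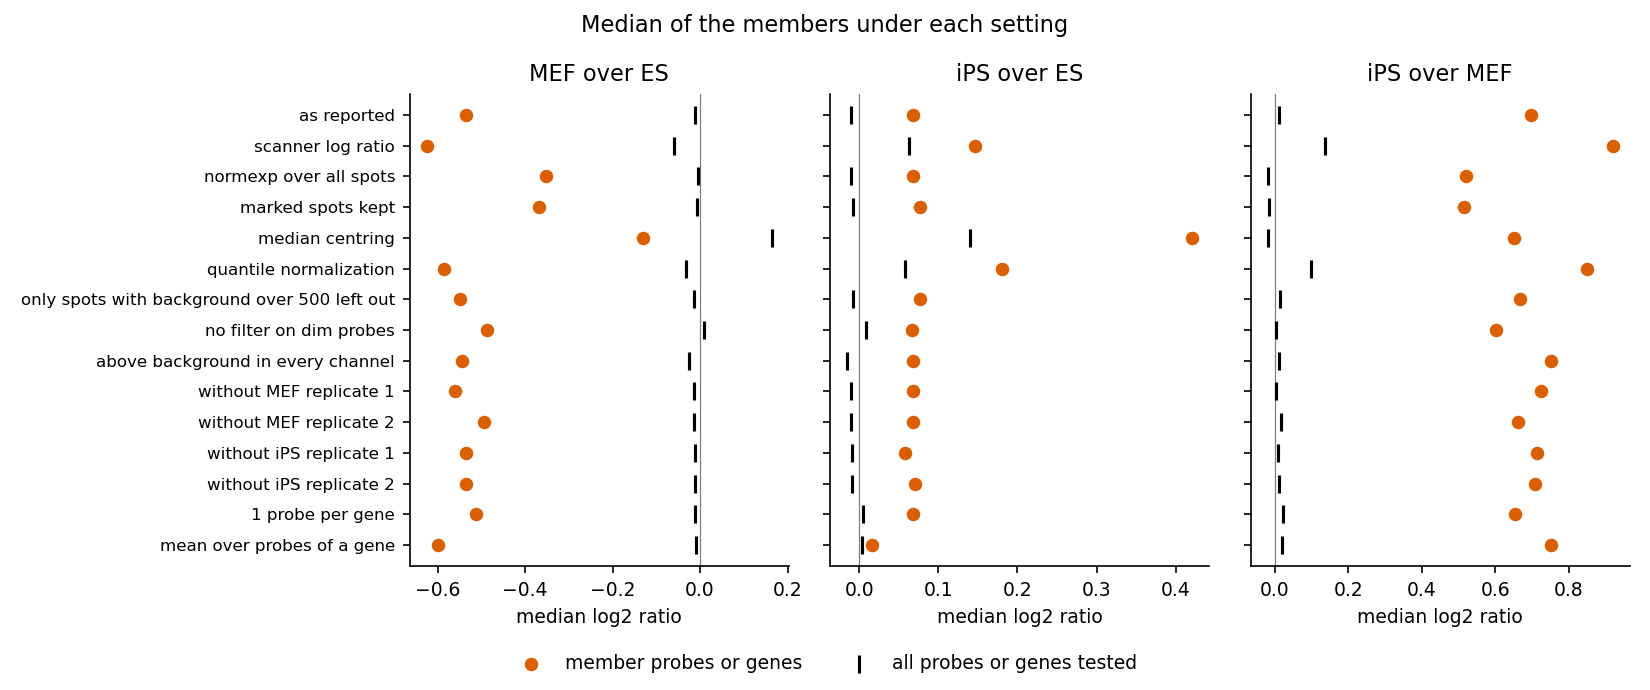
Median log2 ratio (x axis) of the members (points) and of all probes or genes tested (bars) under each way of processing, for MEFs over ES cells, iPS cells over ES cells and iPS cells over MEFs. The members' median stayed below 0 in MEFs over ES cells, between -0.62 and -0.13, and above 0 in iPS cells over MEFs, between 0.51 and 0.92. In iPS cells over ES cells it ran from 0.02 to 0.42.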

How the data were processed

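RNA of iPS cells and of MEFs (red) was measured beside RNA of ES cells (green) on 2 arrays per group. Per the file headers, the authors scanned at 5 micron and used Agilent Feature Extraction 10.5.1.1. Spot and local background intensity in both channels were deposited without normalization. A log10 ratio (red over green) was deposited too, which per the file headers the software had formed from signals it corrected for background and dye. It was turned to log2 and used as an alternative, and the authors' table of values equalled it on every array (largest difference 0, median value 0). Array names were updated through RefSeq (74 member probes through their own accession, 30 through another probe of the name, 6 through a synonym or symbol).

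In limma 3.58.1 (R 4.3.3, the data.table package in version 1.17.8) intensities were background-corrected by normexp (offset 50) and normalized within arrays by loess (span 0.3), with no weight on controls. Controls and spots with an outlier mark were left out. Normexp is usually fitted over all spots. Here it was fitted over the unmarked ones, because on the array of MEF replicate 1 14 marked spots, whose local background passed 500 and reached 694663, governed the fit. That choice was made with the counts under both fits known. A probe was tested if it was well above background in 1 RNA on all of its arrays (27725 of 41174) and had a value on all 4 arrays (24874). Spots of a probe were averaged.

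The 4 arrays entered one linear model with the groups as coefficients (lmFit, eBayes, with 2 residual degrees of freedom and 4.91 prior ones), and p-values were adjusted by Benjamini-Hochberg over all 24874 probes. The ratios over ES cells were tested against 0, which leaves out most of the spread of ES cells, and the groups against each other by the difference of coefficients. With arrays, the number of arrays limits the precision.

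Members and lists were chosen with earlier results of these data known. Named with values were probes among the 10 largest called changes per comparison, all Mbnl and Ptbp probes, the highest and lowest SR, hnRNP and SF3 probe per comparison, and genes whose probes differed in call. Of the cell type lists, those for macrophages, endothelial and epithelial cells served as a check of other cells. Alternatives changed the background fit, normalization, treatment of marked and dim spots, level of test and replicates. Python 3.11.15 (pandas 2.3.3, numpy 2.4.6, matplotlib 3.10.9) wrote the remaining results and the plots. Replicate numbers were not taken as pairs, since the labels do not say what arrays with the same number share. Deviations of arrays with the same number correlated at -0.11 over probes. With 1 difference between replicates per group, that value cannot decide whether they are pairs.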

Additional observations from a re-analysis of the deposited data

Results flagged for a closer look

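At 5 member probes both arrays of 1 group lay above ES cells and both arrays of the other below, with iPS cells and MEFs at least 4-fold apart in the fit (a test of the difference itself). The iPS cells were lower than MEFs at Mbnl1 probe A_51_P428345 (-3.74) and at Mbnl2 probes A_51_P189269 (-4.33) and A_51_P494361 (-3.93). They were higher at Sfrs7 probe A_51_P466673 (2.50) and at Sfrs10 probe A_52_P320822 (2.21). How many of all tested probes met the same rule was not counted, so the number of flagged probes is a description only. Groups of 2 arrays are too small for a check on single outlying arrays.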

How the results depend on the processing

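No called value of a named probe changed sign under any alternative run. Of 63 such calls, 44 fell below the threshold with normexp fitted over all spots, 40 with marked spots kept, 15 with median centring, 3 without MEF replicate 2 and 2 without iPS replicate 2. None did with the scanner's ratio or quantile normalization. With normexp over all spots, MEFs over ES cells had 0 probes higher and 0 lower by limma, members included, with 2389 of all probes and 30 members at an unadjusted p under 0.05. For iPS cells over MEFs they were then 12 higher and 1 lower. With marked spots kept, members in MEFs over ES cells were 0 higher and 3 lower (0% and 2.94%, against 0.379% and 0.343% of all tested probes). In iPS cells over MEFs they were 16 higher and 1 lower (15.7% and 0.98%, against 5.12% and 6.01%). Removing only spots of local background over 500 was an alternative chosen after seeing the data. Of 102 members it gave 3 higher and 25 lower in MEFs over ES cells (2.94% and 24.5%, against 12.5% and 12.3%). For iPS cells over MEFs it gave 37 higher and 5 lower (36.3% and 4.9%, against 15.2% and 17.5%). Neither loss was thus seen once those spots were out. Median centring left 4 lower in MEFs over ES cells (4.55%, against 8.13% of all tested probes). It gave 18 higher in iPS over ES cells (20.5%, against 13%). The scanner's ratio gave 12 higher and 4 lower in iPS over ES cells (13.6% and 4.55%, against 16.4% and 17.4% of all tested probes). Quantile normalization gave 10 higher (11.4%, against 9.67%). For the centring and scaling differences the cause was not tested. With 1 probe per gene, the counts were 9 lower (MEF over ES), 1 higher and 0 lower (iPS over ES), and 16 higher and 2 lower (iPS over MEF). With means over a gene's probes they were 12 lower, 1 higher and 0 lower, and 14 higher and 2 lower. Of the 45 member genes 26.7% were then lower in MEFs than in ES cells, against 12.1% of all genes tested. The 1 higher in iPS cells than in ES cells was 2.22%, against 8.1%. For iPS cells over MEFs 31.1% were higher and 4.44% lower, against 15.6% and 17.5%. Both settings count genes and not probes. Leaving out 1 replicate put the members' median at -0.56 to -0.49 in MEFs over ES cells and at 0.06 to 0.07 in iPS over ES cells. Over all tested probes the median was -0.01 in both. For iPS cells over MEFs the members' median was 0.66 to 0.72, against 0.004 to 0.016 over all tested probes. In these runs a lone array was assumed to vary like the other group. With the replicate number as a block, iPS cells over MEFs had 35 higher and 5 lower members. The crossed pairing, added after seeing the data, gave 35 and 5. These were 39.8% and 5.68% of the members, against 15.4% and 17.7% of all tested probes. The 8 dim probes failed the filter, though some of them were above background on single arrays.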
